A study of Homo sapiens with 6 samples.

Results

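The loci described here are those of MYB, HBS1L, BCL11A, ZBTB7A and LIN28B, genes that regulate the fetal globin genes or lie beside such a regulator. Members were all ATAC-seq peaks that overlapped 1 of 4 windows set around these genes on hg19, and the windows were drawn from gene positions, not from the height of any peak. There were 68 members among the 127153 peaks of the control list and 49 among the 112610 peaks of the shHMGA1 list. ATAC-seq maps open chromatin through the cuts of the Tn5 transposase. All 6 samples were DAMI cells, a leukaemia line that the labels place under MPN/AML (myeloproliferative neoplasm and acute myeloid leukaemia) and that cell line registers list as a derivative of the erythroleukaemia line HEL. In 3 samples the cells carried a control lentivirus, and in 3 they carried a lentivirus with a short hairpin RNA against HMGA1 (shHMGA1). HMGA1 is a small chromatin protein whose AT hooks grip stretches of A and T in the DNA. For the number and sequence of the hairpins, the time after infection and the extent of silencing, nothing is given in the sources used here.

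Each group was represented by 1 deposited peak list, so no value below has a replicate error and no p-value is given. Read depth is unknown, and the sources used here do not say how the 3 samples of a group were joined. SET-2 cells, a line that the series text names as well, were not analysed here, and whether any of their reads entered the lists is not stated. The identity of the cells was not checked against marker genes, because no hg19 annotation was used here. For each peak the lists give a width, a summit with its −log10 p, and an area, which is the area under the significance curve and grows with width. Areas are the authors' own values. They depend on depth and are placed side by side here without a comparison between lists. A rank by area refers to the peak's own list.

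Human red cells switch from fetal to adult globin around birth. BCL11A and ZBTB7A (also called LRF) are zinc finger repressors that bind the fetal globin genes directly and keep them silent in adult cells. MYB is a transcription factor of blood progenitors that acts upstream in this switch, and DNA between HBS1L and MYB holds distal enhancers of MYB with common variants linked to fetal haemoglobin levels. HBS1L itself encodes a GTPase that rescues stalled ribosomes. LIN28B is an RNA-binding protein of the fetal programme that blocks maturation of let-7 microRNAs. BCL11A is driven in erythroid cells by enhancers in its intron 2, named by their distance from the gene's start.

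The promoters are shown because HMGA1 prefers AT-rich DNA. In both lists each of the 5 genes also had its largest or one of its largest peaks near a start. These starts were placed from general knowledge of the hg19 models. Which LIN28B start lies under the largest LIN28B peak was not resolved here, so neither LIN28B window is tied to that peak. The sequences are the 250 bases before the most 5′ start that the RefSeq promoter table (GRCh38.p14) lists for each gene, with the second start of LIN28B added. All 5 genes were matched by symbol. Capitals mark runs of 6 or more A or T. No hg19 sequence was used here, so these bases are tied to the peaks by gene name only and not by coordinates.
MYB, chr6:135181058-135181307, plus strand: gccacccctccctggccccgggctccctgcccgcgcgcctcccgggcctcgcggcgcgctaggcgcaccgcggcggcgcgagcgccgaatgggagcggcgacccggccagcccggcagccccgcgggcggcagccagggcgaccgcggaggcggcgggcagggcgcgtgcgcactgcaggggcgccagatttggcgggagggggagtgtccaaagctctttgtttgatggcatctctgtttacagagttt
HBS1L, chr6:135054823-135055072, minus strand: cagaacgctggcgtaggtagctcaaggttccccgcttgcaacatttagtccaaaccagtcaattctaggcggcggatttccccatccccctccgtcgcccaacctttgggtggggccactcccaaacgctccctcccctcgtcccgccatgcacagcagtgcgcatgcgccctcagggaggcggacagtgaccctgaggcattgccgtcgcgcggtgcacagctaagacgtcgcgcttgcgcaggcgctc
BCL11A, chr2:60553925-60554174, minus strand: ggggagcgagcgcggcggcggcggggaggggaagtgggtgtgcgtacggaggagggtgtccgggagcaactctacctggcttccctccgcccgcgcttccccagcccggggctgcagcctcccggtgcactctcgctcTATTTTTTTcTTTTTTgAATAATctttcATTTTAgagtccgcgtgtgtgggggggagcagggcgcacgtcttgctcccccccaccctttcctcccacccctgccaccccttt
ZBTB7A, chr19:4066900-4067149, minus strand: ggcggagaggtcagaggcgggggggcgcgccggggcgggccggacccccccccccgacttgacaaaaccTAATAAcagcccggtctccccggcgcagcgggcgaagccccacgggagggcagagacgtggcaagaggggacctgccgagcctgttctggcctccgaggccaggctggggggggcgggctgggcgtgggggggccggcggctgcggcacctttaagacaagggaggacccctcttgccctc
LIN28B, first start, chr6:104940715-104940964, plus strand: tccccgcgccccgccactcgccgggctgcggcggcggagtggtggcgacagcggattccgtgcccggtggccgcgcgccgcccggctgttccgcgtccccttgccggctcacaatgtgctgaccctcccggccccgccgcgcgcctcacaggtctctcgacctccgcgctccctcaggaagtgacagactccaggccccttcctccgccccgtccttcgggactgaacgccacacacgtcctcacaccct
LIN28B, second start, chr6:104956857-104957106, plus strand: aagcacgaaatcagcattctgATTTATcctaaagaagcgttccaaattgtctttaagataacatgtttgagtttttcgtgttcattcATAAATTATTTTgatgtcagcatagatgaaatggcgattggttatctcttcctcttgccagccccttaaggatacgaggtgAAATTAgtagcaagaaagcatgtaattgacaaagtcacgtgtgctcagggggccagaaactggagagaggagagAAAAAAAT

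Most of the printed windows were rich in G and C. The GC share was 75.6% for MYB, 64.0% for HBS1L, 64.8% for BCL11A, 74.4% for ZBTB7A and 73.6% for the first LIN28B start, against a median of 58% over 35116 promoter windows of the same length. MYB, HBS1L and the first LIN28B start held no A/T run of at least 6 bases, whereas 58.7% of all windows held at least 1. The printed BCL11A window held 4 such runs, the longest of 9 bases, packed in 1 stretch. The later BCL11A starts, not printed, had GC shares of 72, 51.2, 58.4 and 53.2% in order from the 5′ end. They held 0, 3, 4 and 1 such runs, the longest of 12 bases, so the printed window does not stand for all BCL11A starts. The second ZBTB7A start, also not printed, had a GC share of 84% and 1 such run. The second LIN28B start was the exception among the printed windows, with a GC share of 38.4% (10.1% of all windows were lower), 4 such runs and a longest run of 12 bases. It also held 3 matches to GATAA, the core recognised by GATA factors, counted on both strands, while the other printed windows held none. GATAA was found in 20.4% of all windows. CACCC, a core bound by KLF factors, had 5 matches in the BCL11A window, 1 each in MYB, HBS1L and the first LIN28B start, and none in the printed ZBTB7A window, and was found in 54.7% of all windows. A match is a string of letters and not a measured site.

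Across the 4 windows the main accessible sites were present in both lists, and those present in 1 list only were mostly weak. The 68 control and 49 shHMGA1 peaks formed 69 separate regions. Of these, 40 had exactly 1 peak in each list, 4 had 2 peaks in 1 list joined by 1 in the other, 21 were found in control only and 4 in shHMGA1 only. The 21 control-only peaks were 30.9% of the control members (95% exact Clopper-Pearson interval 20.2 to 43.3), against 24.9% of all control peaks. The 4 shHMGA1-only peaks were 8.16% of the shHMGA1 members (interval 2.27 to 19.6), against 14.8% of all shHMGA1 peaks. Both intervals include the value of the whole list, so a difference from the lists was not detectable at this number of peaks. Control-only peaks made up 84.0% of the 25 unshared members (interval 63.9 to 95.5) and 65.5% of all unshared peaks. These intervals cover counting error only and treat neighbouring peaks as independent.

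The numbers differed by locus. The HBS1L to MYB window (chromosome 6 from 135260000 to 135570000) held 25 control and 18 shHMGA1 peaks. The BCL11A window (chromosome 2 from 60670000 to 60800000) held 18 and 13, and the LIN28B window (chromosome 6 from 105380000 to 105540000) 24 and 17. In these 3 windows the ratio of shHMGA1 to control peaks lay between 0.708 and 0.722, against 0.886 for the whole lists. Each ratio rests on 13 to 25 peaks per list. A difference from the whole lists was not tested. The ZBTB7A window (chromosome 19 from 4035000 to 4080000) held 1 peak in each list. The bases covered differed less than the numbers. They came to 44941 bp in control and 39249 bp in shHMGA1 over all windows, a ratio of 0.873 against 0.909 for the whole lists. Mean widths were 661 and 801 bp, against 711 and 729 bp in the whole lists. Median widths lay closer together, at 409 and 425 bp, against 525 and 539 bp in the whole lists. By locus the ratio of covered bases was 0.744 at HBS1L to MYB, 0.942 at BCL11A, 1.13 at ZBTB7A and 0.888 at LIN28B.

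**Figure D1:**
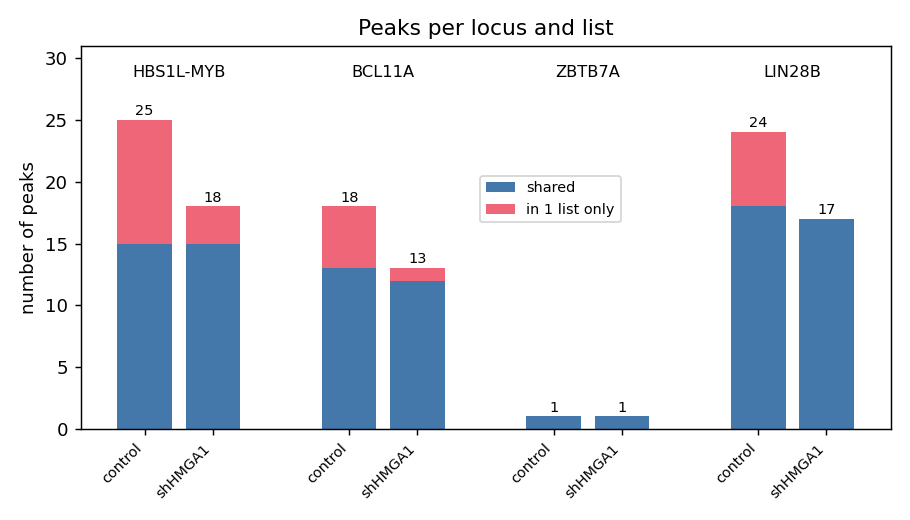
Number of peaks per locus in the control and shHMGA1 lists, divided into peaks that overlap a peak of the other list by at least 1 bp (blue) and peaks in 1 list only (red). The red part is the taller in control at HBS1L to MYB (10 against 3), BCL11A (5 against 1) and LIN28B (6 against 0), and ZBTB7A has 1 shared peak; the control-only shares of 40.0, 27.8 and 25% have exact intervals that include the 24.9% of the whole list, and the shHMGA1-only shares of 16.7, 7.69 and 0% have intervals that include the 14.8% of the shHMGA1 list.

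BCL11A had the largest peaks of the 4 windows. From general knowledge of the hg19 gene models, the first exon of BCL11A lies at the far end of its window, under a pair of broad peaks that met almost edge to edge. In control these ran from 60776430 to 60780043 (3614 bp, area 14368) and from 60780359 to 60783579 (3221 bp, area 15765). They were separated by 315 bp and together spanned 7.15 kb. In shHMGA1 they ran from 60776397 to 60780013 (3617 bp, area 13334) and from 60780352 to 60783276 (2925 bp, area 14587), with a gap of 338 bp and a span of 6.88 kb. The area of each was larger than that of at least 99.1% of its own list. The first of the pair thus kept its width within 3 bp and its summit at the same base. The other was narrower in shHMGA1 at its outer edge, and its summit lay 1549 bp away, nearer to the gene. RefSeq lists 5 starts for BCL11A. On GRCh38, 4 of them fall within 3.02 kb, and the fifth lies 25.4 kb into the gene from the most 5′ start.

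At the intron 2 enhancers of BCL11A no peak was among the strong peaks of either list. The enhancer interval (60715000 to 60730000) held 3 control peaks, of which 2 were control-only, and 1 shHMGA1 peak. With so few peaks the control-only share has an exact interval of 9.43 to 99.2%, which includes the 24.9% of the whole list. The control peaks ran from 60722372 to 60722795 (424 bp, area 215), from 60725268 to 60725962 (695 bp, area 634) and from 60726763 to 60727262 (500 bp, area 272). Their summits lay 57.7, 54.8 and 53.4 kb from the near edge of the outer promoter peak, and the first pair thus sits at the distances of the elements known as +58 and +55. No enhancer coordinates were among the data, so this match rests on distance alone. The distances were taken from a peak edge chosen here, not from the gene's start by which the elements are named. The shHMGA1 list kept a peak at the middle site, from 60725266 to 60725948 (683 bp, area 350.4), with its summit at 54.7 kb. The peaks at 57.7 and 53.4 kb were control-only, at 2471 and 815 bp from the closest shHMGA1 peak. They were weak in their own list, where 4.09% and 16.3% of peaks had a smaller area, and the middle peak ranked above 51.7% of control and 27.7% of shHMGA1 peaks. With areas close to the smallest in the lists, a missing peak at these sites was not distinguishable from a site that fell just below the calling threshold.

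Of the sites between the enhancers and the promoter of BCL11A, 4 were shared and none was in 1 list only. The strongest lay from 60756643 to 60758425 in control (1783 bp, area 3338) and from 60756814 to 60758579 in shHMGA1 (1766 bp, area 2986), with summits 2 bp apart. A neighbour that began at 60758711 in control measured 720 bp (area 1075) and 726 bp (area 1033). A peak about 10 kb from the largest control summit was 603 bp wide in control (area 1293) and 924 bp in shHMGA1 (area 914). A fainter site that began at 60742931 in control was 394 and 517 bp wide, with areas of 423 and 354. These 4 sites thus had peaks of like position in both lists. At the far edge of the window a shared peak from 60670386 was 264 and 335 bp wide, with areas of 413 and 327. Between it and the enhancers, control-only peaks lay from 60693012 to 60693338 (area 220.4) and from 60695893 to 60696152 (area 277).

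Upstream of BCL11A a row of small peaks followed the promoter. The first measured 366 bp in control (area 630.0) and 287 bp in shHMGA1 (area 271). Next, control peaks of 217 bp (60784306 to 60784522, area 830.5) and 295 bp (60784633 to 60784927, area 269) were met by a single shHMGA1 peak of 623 bp (60784286 to 60784908, area 827). Further out, a peak of 625 bp in control (area 1063) was 358 bp wide in shHMGA1 (area 799), and a peak of 242 bp (area 574) was 295 bp wide (area 655). The remaining control-only peak of the window lay here, from 60785417 to 60785753 (area 201). The only shHMGA1-only peak, from 60796151 to 60797111, was 961 bp wide with an area of 719, larger than 55.4% of its list, and lay 3253 bp from the nearest control peak. It was the widest of the 25 unshared members and had the second largest area among them.

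ZBTB7A had 1 accessible site in its 45.0 kb window, and it was strong under both conditions. By general knowledge of the hg19 models this site covers the start of the gene. The peak ran from 4064925 to 4068104 in control (3180 bp, area 13893, summit −log10 p 13.4) and from 4064692 to 4068282 in shHMGA1 (3591 bp, area 12717, summit −log10 p 13.1). It was thus wider in shHMGA1 at both edges, with summits 33 bp apart. Its area exceeded that of 99.2% of control and 99.0% of shHMGA1 peaks. No further peak lay nearby. The closest neighbours outside the window were 56.8 and 21.0 kb away in control and 56.7 and 20.8 kb away in shHMGA1. RefSeq lists 2 starts for ZBTB7A, 1.37 kb apart on GRCh38, a distance shorter than the peak.

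**Figure D2:**
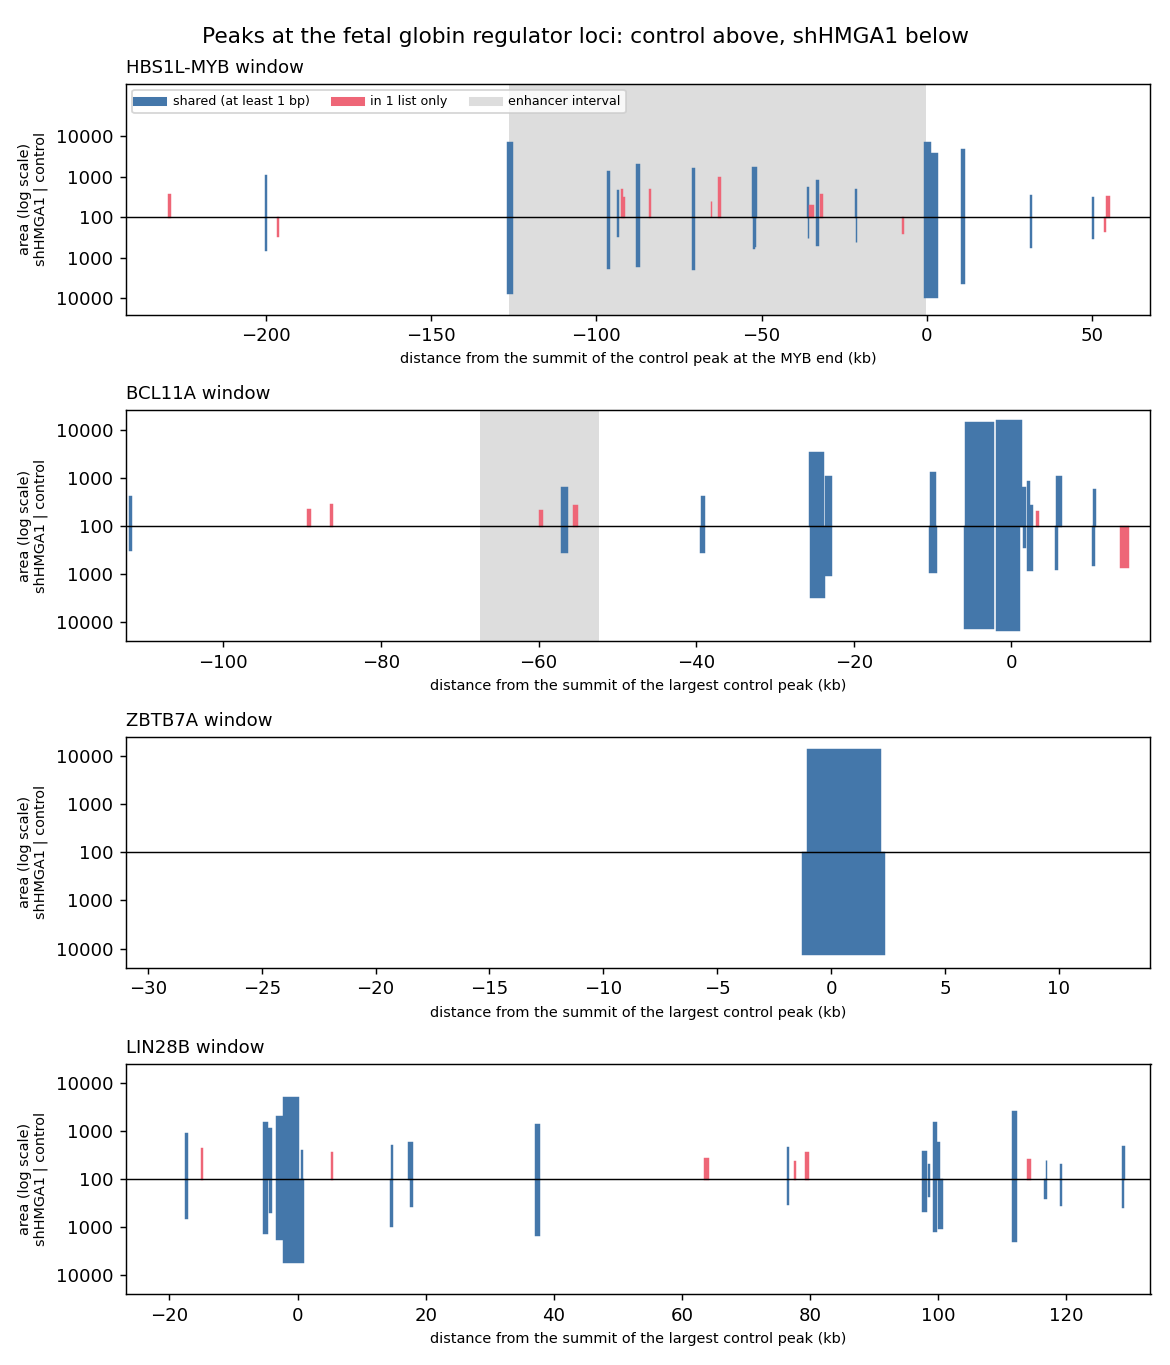
Peaks of the 4 windows drawn to scale along the distance in kb from a control summit, with area on a log scale upward for control and downward for shHMGA1; blue peaks are shared, red peaks are in 1 list only, and grey marks the enhancer intervals between HBS1L and MYB and in BCL11A intron 2. The tall peaks at the promoter ends (areas up to 15765) are blue in both directions, and the red peaks are short, with areas of at most 969.

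At the HBS1L and MYB promoters the peaks were large and shared. The intergenic interval between the genes (135376000 to 135502000) ended at each side in a strong peak. At the HBS1L end the peak ran from 135375391 to 135376839 in control (1449 bp, area 7348) and from 135375436 to 135376836 in shHMGA1 (1401 bp, area 7231), with the summit at the same base. Its summit −log10 p was 15.5 and 15.6, the highest of all members in each list. The summits at the HBS1L and MYB ends were 126 kb apart in both lists, and the RefSeq starts of these genes are 126 kb apart on GRCh38. At the MYB end control had 2 peaks, from 135501426 to 135503155 (1730 bp, area 7222) and from 135503533 to 135505484 (1952 bp, area 3822). In shHMGA1 a single peak covered both, from 135501439 to 135505334 (3896 bp, area 9084), with its summit 6 bp from that of the first control peak. The gap seen in control was thus bridged in shHMGA1, while the outer edges differed by 13 and 150 bp.

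A further strong peak lay inside MYB, 10.8 kb beyond the summit at its start. It ran from 135512563 to 135513719 in control (1157 bp, area 4960.1) and from 135512596 to 135513693 in shHMGA1 (1098 bp, area 4129), with summits 8 bp apart. Weak shared peaks followed at 31.4 kb (217 and 242 bp wide, areas of 361 and 549) and at 50.1 kb (238 and 210 bp, areas of 319 and 318). At 54.6 kb a control-only peak of 674 bp (area 340.0) and at 54.0 kb an shHMGA1-only peak of 293 bp (area 217) were only 304 bp from each other, so a rule that allows a short gap would pair them.

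Between the genes, 18 control and 12 shHMGA1 peaks were called, counting those over the ends, and the number of unshared peaks was 8 in control and 1 in shHMGA1. The control-only share of 44.4% (exact interval 21.5 to 69.2) is set against 24.9% in the whole list, a value that the interval includes. Shared enhancer peaks are given here by the distance of the control summit from the MYB summit. The site at -87.4 kb had widths of 782 and 658 bp (areas of 2092 and 1629.7) and its summit at the same base. At -70.8 kb, near the element that the field calls −71, widths were 620 and 629 bp (areas of 1695 and 1916) with summits 5 bp apart. That label rests on distance alone. At -96.5 kb widths were 367 and 562 bp (areas of 1362 and 1802). These 3 sites ranked above 73.6 to 82.0% of the control list and 76.8 to 79.9% of the shHMGA1 list, so none was weakly ranked in either.

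The site at -52.0 kb was the exception among the stronger intergenic sites. In control it was 1 peak of 1118 bp, from 135449536 to 135450653 (area 1789, larger than 79.2% of the list). In shHMGA1 it appeared as 2 peaks of 240 bp (135449738 to 135449977, area 585) and 334 bp (135450140 to 135450473, area 521), each near the middle of its list (48.1% and 43.8% of areas smaller). Together they covered 574 bp, a log2 ratio of widths of -0.96. This site had the second largest loss of width among the shared regions of the 4 windows.

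The largest loss of width was at -36.0 kb, in a cluster of weak peaks. The peak there measured 390 bp in control (area 550) and 149 bp in shHMGA1 (area 333), a log2 ratio of -1.39. Its neighbours at -35.7, -34.5 and -32.1 kb were control-only (309, 508 and 550 bp, areas of 205, 203 and 378), and that at -33.2 kb was shared (511 and 425 bp, areas of 855 and 470). So this cluster held 5 control and 2 shHMGA1 peaks, a count that was not tested. In the whole control list 24.9% of peaks were unshared. The control-only peaks at -35.7, -34.5 and -32.1 kb ranked above only 1.38, 0.77 and 31.9% of the control list. That at -35.7 kb lay 227 bp from an shHMGA1 peak, so a rule that allows a gap of 500 bp counts it as shared. A shared peak at -21.5 kb was 214 and 191 bp wide, with areas of 491 and 406, and another at -93.7 kb was 251 and 206 bp wide, with areas of 474 and 282.

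The control-only peaks of the interval included the strongest unshared member of all 4 windows. It lay at -62.9 kb, from 135439147 to 135439735 (589 bp, area 969, summit −log10 p 6.95), ranked above 65.1% of control peaks, and lay 7355 bp from any shHMGA1 peak. The others were weaker. At -83.9 kb, near the element that the field calls −84, lay a peak of 226 bp from 135418289 to 135418514. It had an area of 507, ranked above 43.7% of control peaks and lay 3178 bp from the closest shHMGA1 peak. No enhancer coordinates were among the data, so this label rests on distance alone. Peaks at -92.2 and -91.8 kb (310 and 190 bp, areas of 504 and 314) and at -65.3 kb (196 bp, area 257) were also in control only. The single shHMGA1-only peak of the interval lay at -7.45 kb, 365 bp wide with an area of 245. On the HBS1L side, a shared peak of 351 bp in both lists began at 135301969 (areas of 1121 and 647). A control-only peak began at 135272882 (598 bp, area 386) and an shHMGA1-only peak at 135305876 (285 bp, area 286).

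LIN28B was accessible near its start and at a distal cluster within its window. By general knowledge of the hg19 models the largest peak lies at a start of LIN28B. It ran from 105404596 to 105406920 in control (2325 bp, area 4946), followed by a small peak from 105407353 to 105407534 (182 bp, area 409.6). In shHMGA1 a single peak spanned both, from 105404600 to 105407657 (3058 bp, area 5341). As at MYB and in the row of small peaks upstream of BCL11A, a gap present in control was bridged in shHMGA1. The site at -52.0 kb between HBS1L and MYB went the other way, with 1 peak in control and 2 in shHMGA1. No share of split or joined regions over the whole lists is given here, so these cases are only described. RefSeq lists a pair of LIN28B starts 16.1 kb apart on GRCh38, and which of them the peak covers was not resolved here.

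Just before this peak, 3 further sites were shared. They measured 622 and 598 bp (areas of 1551 and 1302), 597 and 331 bp (areas of 1168 and 481), and 1010 and 1012 bp (areas of 2066 and 1745). The middle site was thus the narrower in shHMGA1, with a log2 ratio of -0.85, and the outer pair kept its width within 24 bp. At -17.4 kb from the largest summit a peak of 379 bp in control (area 896) was 335 bp in shHMGA1 (area 646).

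Further into LIN28B the strongest site lay at 111.8 kb, from 105518328 to 105519006 in control (679 bp, area 2544, summit −log10 p 10.9) and to 105518979 in shHMGA1 (652 bp, area 1979, summit −log10 p 9.78), with the summit at the same base. At 99.6 kb widths were 522 and 579 bp (areas of 1543 and 1210.1), and next to it at 100 kb 293 and 622 bp (areas of 594 and 1044), a log2 ratio of 1.09. The site at 37.4 kb had widths of 605 and 604 bp (areas of 1419 and 1449.9). A site at 14.6 kb was 197 bp wide in control (area 512) and 262 bp in shHMGA1 (area 944), and ranked above 44.1% of the control and 63.6% of the shHMGA1 list. A peak at 17.6 kb was 588 bp wide in control and 365 bp in shHMGA1. So some sites of LIN28B were wider in control and others in shHMGA1.

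All 17 shHMGA1 peaks of LIN28B overlapped a control peak (0 of 17 unshared, exact interval 0 to 19.5%, which includes the 14.8% of the whole list). Of the 24 control peaks 6 were control-only, a share next to the 24.9% of the whole list. The 5 largest of them began at 105391798 (181 bp, area 444), 105412091 (148 bp, area 363), 105486122 (342 bp, area 358), 105470326 (521 bp, area 277) and 105520660 (469 bp, area 260.0). Each had an area below the median of its list.

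Unshared members mostly had small areas, as in the whole lists. Of the 21 control-only peaks 20 had an area below the median of the control list, against 93.8% of all control-only peaks. Of the 4 shHMGA1-only peaks 3 were below that of the shHMGA1 list, against 95.7% of all shHMGA1-only peaks. The unshared control members ranked above 0.19 to 65.1% of their list. Their median areas were 277 and 265, against 896 and 655 for shared members. In the whole lists the medians were 289 and 275 for unshared peaks and 876 and 759 for shared peaks, so the same order was seen there. The 8 control and 7 shHMGA1 members among the 10% of their list with the largest areas were all shared, as were all 12715 and 11261 such peaks of the lists.

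**Figure D3:**
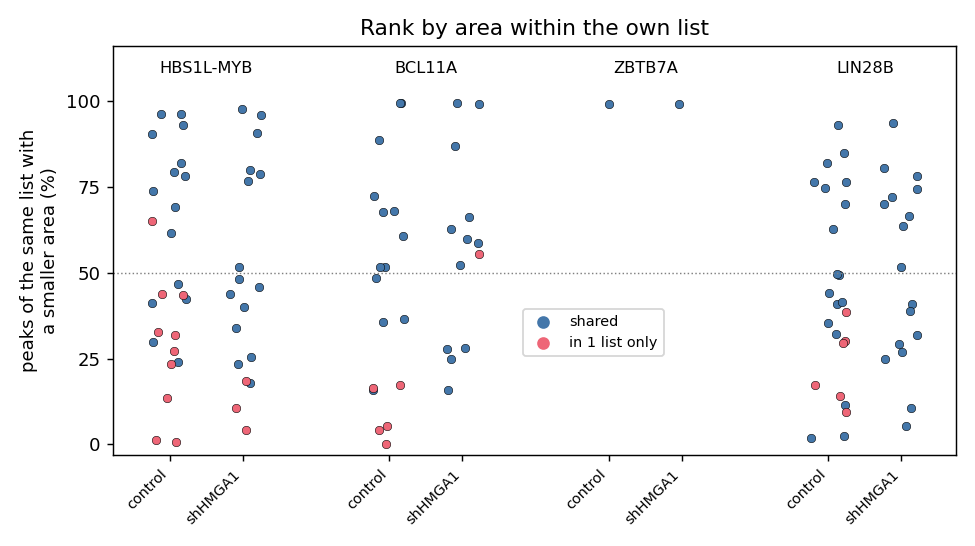
Rank of each peak by area within its own list, as the percentage of that list with a smaller area, by locus and list, with shared peaks in blue and peaks in 1 list only in red. Of the 25 red points, 23 lie below the dotted line at 50%, and the exceptions are a control peak between HBS1L and MYB at 65.1% and an shHMGA1 peak at BCL11A at 55.4%.

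Where both lists had 1 peak, widths were close. Over the 40 such regions the median log2 ratio of shHMGA1 to control width was -0.02 (quartiles -0.19 and 0.16), against -0.03 (quartiles -0.29 and 0.18) over all 83581 such regions. The shHMGA1 peak was the narrower in 22 of 40, beside 54.6% of all regions. A loss of width by 1.5-fold or more was seen at 5 of 40 (background 13.8%) and a gain of that size at 5 of 40 (background 9.8%). By locus the medians were -0.12 at HBS1L to MYB (12 regions, 8 narrower), 0.00 at BCL11A (11 regions, 5 narrower) and -0.03 at LIN28B (16 regions, 9 narrower). The median distance between summits was 19 bp, against 20 bp in the whole lists, and 33 of 40 (82.5%) lay within 50 bp, against 73.5% of all such regions. The largest distance was the 1549 bp at the BCL11A promoter.

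**Figure D4:**
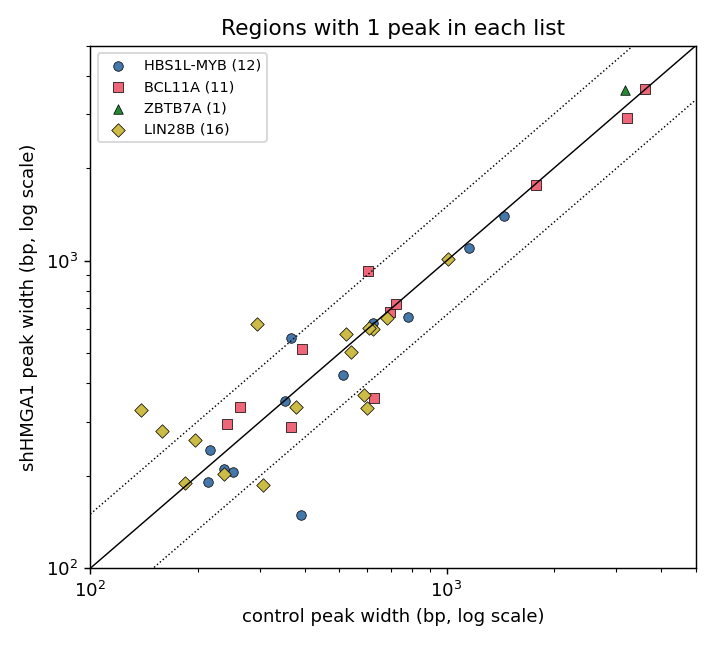
Width in bp of the control peak (x axis) and the shHMGA1 peak (y axis), both on log scales, for the 40 regions with 1 peak in each list; the solid line marks equal widths and the dotted lines a 1.5-fold difference. Wide peaks at BCL11A, ZBTB7A and HBS1L to MYB lie close to the line, and the 10 regions outside the dotted lines are all narrower than 1000 bp.

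The windows were denser in peaks than their chromosomes, other than ZBTB7A. Control peaks numbered 80.6 per Mb at HBS1L to MYB and 150 per Mb at LIN28B, against 46.6 per Mb between the first and last peak of chromosome 6, and 138 per Mb at BCL11A against 48.4 on chromosome 2. In shHMGA1 the numbers were 58.1 and 106 against 40.7, and 100 against 42.4. The ZBTB7A window had 22.2 per Mb in both lists, against 35.0 and 33.3 on chromosome 19. The windows were set around known genes, so this describes them and was not tested.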

How the data were processed

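Open chromatin was profiled by ATAC-seq in 3 control and 3 shHMGA1 samples of DAMI cells, and the deposited data were 2 peak lists on hg19, 1 per group. Per the submitters' processing notes, peaks were called with Genrich. The sources used here do not give its version or settings, the aligner, or the joining of samples. The authors' deposited signal column is the area of a peak, the deposited −log10 p is that of its summit without adjustment, and the deposited score is a capped area per base, which was not used. Deposited positions and summit offsets are whole bases. Windows were those of the rule, and starts are printed 1-based. Peaks were compared with bedtools 2.31.1 in Python 3.11.15 (pandas 2.3.3, numpy 2.4.6, scipy 1.17.1), and a shared peak overlapped by at least 1 bp. The overlap step was checked on simulated lists. Named sites were the largest peaks, those at starts or in the enhancer intervals, the unshared peaks (at most the 5 largest where over 5 at a locus, outside those intervals) and sites split between lists, and further shared sites were added after their values were seen. Members and rules were chosen with earlier results of these data known. The planned look-up of marker genes was not run, since no hg19 annotation was used here. Alternatives were a reciprocal overlap of 50%, a gap of 500 bp, a joined significance threshold (both lists, or the counted list only), merging within 150 bp, and summits inside the window.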

Additional observations from a re-analysis of the deposited data

How the results depend on the processing

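With 1 list per group and unknown depth, the absence of a weak peak cannot be told apart from a call that just missed the threshold. Over the 4 windows, the 21 control-only and 4 shHMGA1-only peaks became 31 and 12 with a reciprocal overlap of 50%, 19 and 3 where a gap of at most 500 bp counted as shared, and 12 and 1 where both lists were held to the joined median summit −log10 p of 5.24. With only the counted list held to that median they were 5 and 0. Merging peaks within 150 bp and requiring the summit in the window left both at 21 and 4. Reciprocal overlap gave 8 control-only and 3 shHMGA1-only peaks at BCL11A, 7 shHMGA1-only peaks at HBS1L to MYB and 2 at LIN28B. With both lists at the joined median, HBS1L to MYB held 15 control and 9 shHMGA1 peaks, BCL11A 9 and 8, and LIN28B 15 and 10. At that setting BCL11A had 1 control-only and 0 shHMGA1-only peaks, and HBS1L to MYB had 1 shHMGA1-only peak. With the counted list alone filtered, control-only peaks numbered 3 at HBS1L to MYB, 0 at BCL11A and 2 at LIN28B, and shHMGA1-only peaks 0 at HBS1L to MYB and at BCL11A. These stricter settings keep fewer peaks by construction. The other 78 of the values recomputed per locus stayed within 1.5 times the main one, and 18 did not. The 78 include every value at ZBTB7A, where 1 shared strong peak left little that could change. They also include every value with the summit in the window, a setting that changed nothing. The number 78 is therefore not a measure of stability at the other loci. No paired analysis was possible because the lists carry no replicate numbers and no values of single samples. Leaving out a replicate was not possible either.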
